A study of Mus musculus with 28 samples.

Results

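The 7 genes described here encode the 5 subunits of the kainate receptor (Grik1, Grik2, Grik3, Grik4 and Grik5) and its auxiliary proteins Neto1 and Neto2. They were chosen by gene symbol and are 7 of 49341 genes in the deposited gene table. Each of the 7 lay above the minimum used for testing in all 24 libraries, and 24911 genes were tested in all. Layers of the hippocampus were cut out by laser from 3 male mice (492, 496 and 502), all of which carried the Amigo2-GFP reporter on C57BL/6J and were 6 to 8 weeks old. The dendritic layers were the stratum radiatum of CA1, CA2 and CA3 and the molecular layer of the dentate gyrus (DG). The cell body layers were the pyramidal layer in CA1, CA2 and CA3 and, in DG, the layer of granule cells. Every mouse gave all 8 layers, so each group had 3 libraries, and no group was without the reporter.

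Kainate receptors are glutamate-gated cation channels. The subunits encoded by Grik1, Grik2 and Grik3 can form channels on their own, whereas the high-affinity subunits encoded by Grik4 and Grik5 need a partner from the first set to reach the membrane as a channel. Neto1 and Neto2 are transmembrane proteins with CUB domains that bind these receptors and slow their responses. In the hippocampus the receptors are best known from the mossy fibre synapse, where granule cell axons of DG contact CA3 pyramidal cells, with receptors on both sides of the contact.

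The subunits share a pore-lining loop, and the coding sequence around its Q/R site is printed to show how the 5 genes are related. The glutamine codon of this site is in capitals. RNA editing can change it in Grik1 and Grik2 transcripts, and editing was not measured here. The sequences are from the GENCODE M21 transcripts on GRCm38 (mm10), in the sense direction.
Grik1: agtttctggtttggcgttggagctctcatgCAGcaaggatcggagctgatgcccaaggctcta
Grik2: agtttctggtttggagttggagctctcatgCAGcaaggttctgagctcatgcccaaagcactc
Grik3: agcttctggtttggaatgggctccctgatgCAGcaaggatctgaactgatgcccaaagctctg
Grik4: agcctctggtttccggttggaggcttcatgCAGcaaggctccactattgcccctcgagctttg
Grik5: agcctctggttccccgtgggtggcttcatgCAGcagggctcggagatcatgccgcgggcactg
The capital codon was number 621 of the coding sequence in Grik1 and in Grik2, 623 in Grik3, 606 in Grik4 and 605 in Grik5. The Grik4 window lay within 1 exon at chr9:42547593-42547655 and the Grik5 window within 1 exon at chr7:25022467-25022529, both on the minus strand. The other 3 windows crossed an exon junction. Over the 63 bases, Grik1 and Grik2 were 88.9% identical, and each was 81.0% identical to Grik3. Grik4 and Grik5 were 73.0% identical to each other, and a gene of the first set and a gene of the second were 60.3% to 69.8% identical.

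On mm10 the genes lie at chr16:87895900-88290265 (Grik1, minus strand), chr10:49094833-49788766 (Grik2, minus), chr4:125490700-125714173 (Grik3, plus), chr9:42518135-42944493 (Grik4, minus), chr7:25009849-25072346 (Grik5, minus), chr18:86394952-86506718 (Neto1, plus) and chr8:85636588-85700924 (Neto2, minus). Values are the deposited log2 gene values, which rest on estimated read numbers. They compare 1 gene across libraries and are not set between genes, because they are not divided by transcript length. The normalized linear values summed to 37.0 to 98.7 M in dendritic libraries and 29.3 to 55.5 M in cell body libraries. Mitochondrially encoded RNAs made up 29.5% to 46.9% of the total in dendritic libraries and 4.21% to 9.08% in cell body libraries. Totals were highest in CA1 dendrites of mice 492 and 496. Dendritic libraries started from 1 ng of RNA and cell body libraries from 5 ng, so layer and input cannot be told apart.

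The captured layers held the markers of their labels. The lists were chosen with earlier results of these data known, so the counts are not an independent check. The CA2 list also holds Amigo2, the gene of the reporter that all mice carried. In cell body layers, limma called 5 of 5 CA1, 7 of 7 CA2, 4 of 5 CA3 and 6 of 6 granule cell markers higher in their own subregion than in the other 3 (adjusted p below 0.05). In dendritic layers the counts were 5 of 5, 3 of 7, 2 of 5 and 4 of 6. Some markers were also higher outside their own subregion. In CA2 cell bodies 4 of 5 CA3 markers were higher, so the CA3 list does not separate CA3 from CA2. Among cell body layers, 2 of 7 CA2 markers were higher and 3 lower in DG, and 2 of 6 granule cell markers were higher and 2 lower in CA1. Dendritic layers also hold glia, interneurons, vessels and axons of other cells. All 12 astrocyte, all 11 oligodendrocyte lineage, all 10 microglia and all 8 endothelial markers were higher in dendritic than in cell body layers, as were 12 of 14 interneuron markers. No interneuron, astrocyte or oligodendrocyte lineage marker was at 0 in any library.

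**Figure D1:**
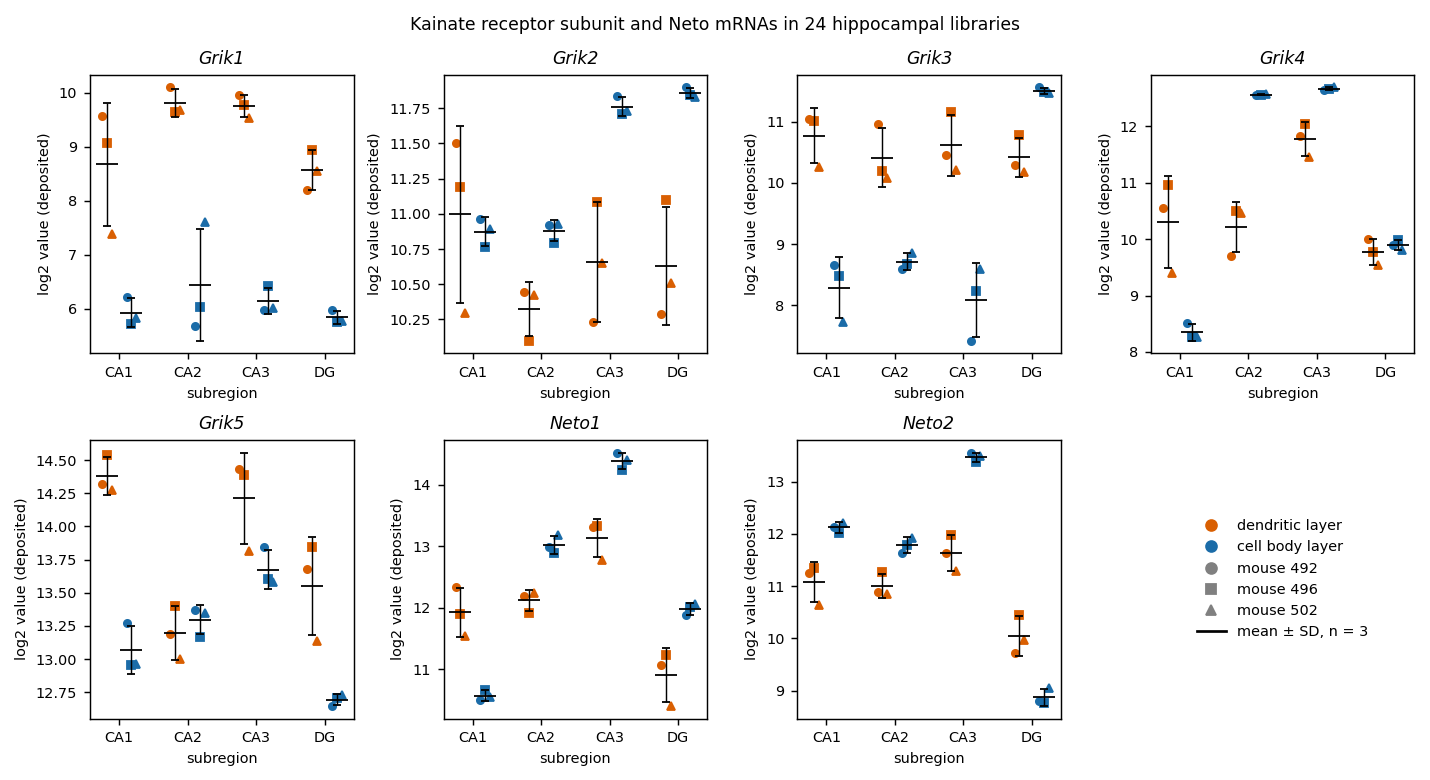
Deposited log2 values (vertical axes, 1 scale per gene) of the 7 genes in the dendritic layer (orange, left) and the cell body layer (blue, right) of each subregion (horizontal axis). Symbols are mice, and black bars are means ± SD of 3 mice. Grik1 is higher in the dendritic layer of all 4 subregions, whereas the layers of Grik3, Grik4, Neto1 and Neto2 change places between subregions.

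The first comparison asked whether the mRNAs differed between layers. Averaged over the 4 subregions, limma called 3 of the 7 genes higher (Grik1, Grik3, Grik5) and 4 lower (Grik2, Grik4, Neto1, Neto2) in dendritic layers, where 45.2% of all tested genes were called (19.8% higher, 25.4% lower). Over all tested genes the median log2 difference was -0.20. It was -0.24 under quantile normalization, -0.66 under scaling to library totals and -0.19 under scaling to totals outside the mitochondrial genome. Within subregions the members called were 6 in CA1 (5 higher, 1 lower), 5 in CA2 (2 higher, 3 lower), 7 in CA3 (3 higher, 4 lower) and 6 in DG (3 higher, 3 lower). The share of all genes called was 24.8% in CA1 (15.2% higher, 9.56% lower), 28% in CA2 (10.8% higher, 17.2% lower), 22.1% in CA3 (10.6% higher, 11.4% lower) and 22.3% in DG (13% higher, 9.31% lower). An F test of whether the layer difference itself differed among the 4 subregions called 5 of the 7 (Grik3, Grik4, Grik5, Neto1, Neto2), with 11.7% of genes called.

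Grik1, the subunit GluK1, was higher in the dendritic layer of every subregion. Its log2 value in mice 492, 496 and 502 was 9.56, 9.06 and 7.39 in CA1 dendritic layers and 6.23, 5.73 and 5.83 in CA1 cell body layers. In CA2 it was 10.10, 9.65 and 9.68 in dendritic layers and 5.68, 6.03 and 7.62 in cell body layers. The dendritic library of mouse 502 was the low one in CA1, and the cell body library of mouse 502 the high one in CA2, but the layers did not overlap in either subregion. CA3 had 9.95, 9.77 and 9.54 in dendritic layers and 5.99, 6.42 and 6.02 in cell body layers. DG had 8.20, 8.94 and 8.54 in dendritic layers and 5.99, 5.75 and 5.78 in cell body layers. Again every dendritic library exceeded every cell body library.

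The mean layer difference of Grik1 was 3.11 ± 0.28 on the log2 scale (SE, limma adjusted p = 1.02e-09), a fold of 8.64. Within subregions it was 2.74 ± 0.56 in CA1, 3.37 ± 0.56 in CA2, 3.61 ± 0.56 in CA3, with 2.72 ± 0.56 in DG. The limma adjusted p was 0.000516, 4.55e-05, 2.49e-05 and 0.000631. The F test did not call a difference among subregions (adjusted p = 0.77). The CA1 value rested on 2 libraries: without CA1 dendrites of mice 492 and 496 it was 1.39 and not called (adjusted p 0.000318 to 0.179 over 13 alternatives). The 14 interneuron markers summed to 27586 to 100181 normalized units in dendritic and 14986 to 53671 in cell body libraries, and their median layer difference was 1.75. Cck, 1 of the 14 and a large part of the cell body sums, went the other way. Its mean log2 values in CA1, CA2, CA3 and DG were 13.02, 12.11, 12.25 and 10.05 in dendritic layers. In cell body layers they were 14.54, 14.82, 14.28 and 11.52. The 12 astrocyte markers summed to 532492 to 1114860 in dendritic and 53060 to 165373 in cell body libraries. Slc1a2 was a large part of these sums. Its mean log2 values in CA1, CA2, CA3 and DG were 19.31, 18.90, 18.78 and 19.38 in dendritic layers and 15.34, 15.68, 17.08 and 15.23 in cell body layers. The part of interneurons and astrocytes in the Grik1 difference was not tested. In bulk layers, fewer cells of a type and less RNA per cell cannot be told apart.

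Grik3, the subunit GluK3, was higher in the dendritic layers of the 3 CA fields and lower in the dendritic layer of DG. In CA1 its log2 values were 11.05, 11.01 and 10.25 in dendritic layers and 8.66, 8.47 and 7.72 in cell body layers. In CA2 they were 10.96, 10.20 and 10.08 in dendritic layers and 8.60, 8.67 and 8.86 in cell body layers. The layers were apart by more than 1 unit in every mouse. CA3 had 10.46, 11.16 and 10.21 in dendritic layers and 7.42, 8.23 and 8.59 in cell body layers. DG, in contrast, had 10.29, 10.78 and 10.18 in dendritic layers and 11.56, 11.48 and 11.47 in cell body layers. All 3 DG cell body libraries exceeded all other libraries of this gene.

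The Grik3 layer difference was 2.49 ± 0.33 in CA1, 1.70 ± 0.33 in CA2 and 2.53 ± 0.33 in CA3 (SE, limma adjusted p = 2.79e-06, 0.000338 and 3.28e-06). In DG it was -1.09 ± 0.33 (adjusted p = 0.0198). The F test gave an adjusted p of 1.25e-05, and the mean over subregions was 1.41 ± 0.17 (adjusted p = 1.38e-07). The DG call did not survive leaving out any mouse, at -0.99 without 492, -1.28 without 496 and -0.99 without 502, nor leaving out the 4 CA2 and DG dendritic libraries that have a repeat (-0.90, adjusted p 4.27e-05 to 0.262 over 13 alternatives). The CA2 call was also lost without those 4 libraries (1.31, 2.74e-06 to 0.0835 over 13 alternatives). In DG too, 12 of 12 astrocyte, 11 of 11 oligodendrocyte lineage and 8 of 14 interneuron markers were higher in the dendritic layer, and their part in the Grik3 values was not tested.

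Grik2, the subunit GluK2, was lower in the dendritic layers of CA3 and DG. Its log2 values were 10.23, 11.09 and 10.65 in CA3 dendritic layers and 11.84, 11.71 and 11.73 in CA3 cell body layers. In DG they were 10.29, 11.09 and 10.51 in dendritic layers and 11.90, 11.84 and 11.83 in cell body layers. The cell body libraries of these subregions were close together, whereas the dendritic libraries spread more widely. CA1 had 11.50, 11.19 and 10.30 in dendritic layers and 10.97, 10.76 and 10.89 in cell body layers, and the layers overlapped. CA2 had 10.45, 10.10 and 10.42 in dendritic layers and 10.92, 10.80 and 10.93 in cell body layers, with no overlap.

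For Grik2 the layer difference was -1.10 ± 0.27 in CA3 and -1.23 ± 0.27 in DG (SE, limma adjusted p = 0.00343 and 0.00125). The values that did not pass were 0.12 ± 0.27 in CA1 and -0.56 ± 0.27 in CA2 (adjusted p = 0.799 and 0.131). The direction in CA1 turned under 6 of the 13 alternatives, which are given in the closing section. Averaged over subregions, the difference was -0.69 ± 0.13 (adjusted p = 0.000139), and the F test missed the threshold (adjusted p = 0.0519). It passed under 6 of 13 alternatives, the 3 other scalings among them, and the CA2 value was called under scaling to totals (-0.67). The CA3 call was lost without mouse 492 (-0.85, adjusted p 3.43e-05 to 0.0775 over 13 alternatives), and the DG call without the 4 libraries with a repeat (-0.82, 3.05e-07 to 0.179).

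Grik4, the high-affinity subunit GluK4, was higher in the dendritic layer of CA1 and lower in the dendritic layers of CA2 and CA3. Its log2 values in CA1 were 10.55, 10.96 and 9.40 in dendritic layers and 8.52, 8.27 and 8.26 in cell body layers. In CA2 they were 9.70, 10.49 and 10.45 in dendritic layers and 12.54, 12.56 and 12.57 in cell body layers. The CA2 cell body libraries were close together, and the layers were apart by more than 2 units in each mouse. CA3 had 11.83, 12.03 and 11.45 in dendritic layers and 12.65, 12.65 and 12.69 in cell body layers. DG had 10.01, 9.78 and 9.54 in dendritic layers and 9.90, 9.99 and 9.81 in cell body layers, and these overlapped.

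The Grik4 layer difference was 1.96 ± 0.28 in CA1 and -2.34 ± 0.28 in CA2 (SE, limma adjusted p = 7.23e-06 and 5.67e-07). It was -0.89 ± 0.28 in CA3 (adjusted p = 0.0226) and -0.12 ± 0.28 in DG (adjusted p = 0.832, not called). Under scaling to totals the DG value was -0.77 and called. The F test gave an adjusted p of 4.83e-07. The CA1 and CA2 calls held under all 13 alternatives, although the CA1 value was 1.12 without CA1 dendrites of mice 492 and 496 and 0.97 under scaling to totals. The CA3 call was lost without any single mouse, at -0.93 without 492, -1.03 without 496 and -0.72 without 502, and also under quantile normalization (-0.62), totals outside the mitochondrial genome (-0.70) and a spread with neither trend nor robust weights (adjusted p 0.0024 to 0.12 over 13 alternatives). The mean over subregions, -0.35 ± 0.14 (adjusted p = 0.045), was lost under 6 of 13 alternatives (1.19e-05 to 0.273), including without mouse 492 (-0.34), without mouse 502 (-0.22), without the 4 libraries with a repeat (-0.36) and without the mouse block.

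Grik5, the high-affinity subunit GluK5, was higher in the dendritic layers of CA1, CA3 and DG. Its log2 values in CA1 were 14.32, 14.54 and 14.28 in dendritic layers and 13.28, 12.96 and 12.96 in cell body layers. In DG they were 13.68, 13.85 and 13.14 in dendritic layers and 12.65, 12.71 and 12.73 in cell body layers, again with no overlap. In CA3 they were 14.43, 14.39 and 13.81 in dendritic layers and 13.84, 13.60 and 13.58 in cell body layers. The layers overlapped there, although the dendritic library was the higher one in each mouse. CA2 had 13.19, 13.40 and 13.00 in dendritic layers and 13.37, 13.17 and 13.35 in cell body layers, which overlapped.

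The Grik5 layer difference was 1.31 ± 0.17 in CA1, 0.54 ± 0.17 in CA3 and 0.86 ± 0.17 in DG (SE, limma adjusted p = 1.53e-06, 0.0231 and 0.000436). In CA2 it was -0.10 ± 0.17 (adjusted p = 0.725), and that direction turned under 4 alternatives, which are given in the closing section. The F test called Grik5 (adjusted p = 0.00133), but not under any of the 3 other scalings or without mouse 492. The mean over subregions was 0.65 ± 0.08 (adjusted p = 5.83e-07). Under scaling to totals the mean and the CA1, CA3 and DG values were 0.15, 0.33, 0.27 and 0.21, none of them called, and the median of all genes between layers was then -0.66. The CA3 call was also lost without mouse 492 (0.51) and without mouse 496 (0.41), with an adjusted p of 1.24e-05 to 0.267 over 13 alternatives.

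Neto1, an auxiliary protein that also binds NMDA receptors, was higher in the dendritic layer of CA1 and lower in the dendritic layers of the other 3 subregions. In CA1 its log2 values were 12.34, 11.90 and 11.53 in dendritic layers and 10.49, 10.66 and 10.55 in cell body layers. CA2 had 12.19, 11.92 and 12.25 in dendritic layers and 12.98, 12.90 and 13.18 in cell body layers. The layers did not overlap in these subregions. CA3 had 13.31, 13.33 and 12.78 in dendritic layers and 14.52, 14.25 and 14.41 in cell body layers. DG had 11.07, 11.24 and 10.40 in dendritic layers and 11.88, 12.01 and 12.06 in cell body layers. Here too the layers stayed apart, and mouse 502 had the lowest dendritic library in both.

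The layer difference of Neto1 was 1.36 ± 0.21 in CA1, -0.90 ± 0.21 in CA2, -1.25 ± 0.21 in CA3, with -1.08 ± 0.21 in DG, with limma adjusted p of 2.71e-05, 0.00225, 9.85e-05 and 0.000491 (SE). The F test gave an adjusted p of 2.59e-06. The mean over subregions was -0.47 ± 0.11 (adjusted p = 0.000838) and -0.30 without mouse 502. The CA1 call was lost under scaling to totals (0.37), the CA2 call under quantile normalization (-0.29) and scaling to totals outside the mitochondrial genome (-0.40), and the DG call without the 4 libraries with a repeat (-0.75). Adjusted p ran from 7.19e-06 to 0.0607 for CA1, 1.47e-05 to 0.179 for CA2 and 4.11e-09 to 0.11 for DG over 13 alternatives.

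Neto2, the other auxiliary protein, was lower in the dendritic layers of the CA fields and higher in the dendritic layer of DG. Its log2 values in CA1 were 11.25, 11.34 and 10.65 in dendritic layers and 12.14, 12.02 and 12.22 in cell body layers. In CA2 they were 10.88, 11.27 and 10.85 in dendritic layers and 11.64, 11.79 and 11.93 in cell body layers. Every dendritic library was below every cell body library in both. CA3 had 11.64, 11.99 and 11.29 in dendritic layers and 13.55, 13.37 and 13.49 in cell body layers. DG had 9.72, 10.46 and 9.97 in dendritic layers and 8.80, 8.76 and 9.06 in cell body layers. The DG cell body libraries were the lowest of the 24 for this gene.

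The Neto2 layer difference was -1.05 ± 0.23 in CA1, -0.78 ± 0.23 in CA2 and -1.83 ± 0.23 in CA3 (SE, limma adjusted p = 0.00106, 0.0107 and 1.36e-06). In DG it was 1.18 ± 0.23 (adjusted p = 0.000342), a direction opposite to that of Grik3 in every subregion. The F test gave an adjusted p of 3.24e-06, and the mean over subregions was -0.62 ± 0.11 (adjusted p = 7.01e-05). The CA2 call was lost under 5 of 13 alternatives (0.000536 to 0.278), which were quantile normalization (-0.35), totals outside the mitochondrial genome (-0.28), and the fits without mouse 492 (-0.80), without mouse 502 (-0.64) and without the 4 libraries with a repeat (-0.56). The CA1, CA3 and DG calls held under all 13.

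Scaling to totals moved some other layer differences by more than 1.5 times while they stayed called. Averaged over subregions, Grik2 was -1.19, Grik3 0.91, Grik4 -0.85, Neto1 -0.97 and Neto2 -1.12 under that scaling. In CA1 Grik1 was 1.76, Grik3 1.504 and Neto2 -2.03. In DG Grik2 was -1.88, Grik3 -1.74, Neto1 -1.73 and Neto2 0.53. Other such values were -0.29 for Neto1 averaged over subregions, -0.82 for Neto1 in CA3 and 0.86 for Grik5 in CA3 under quantile normalization, and -0.56 for Grik4 averaged over subregions without CA1 dendrites of mice 492 and 496.

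**Figure D2:**
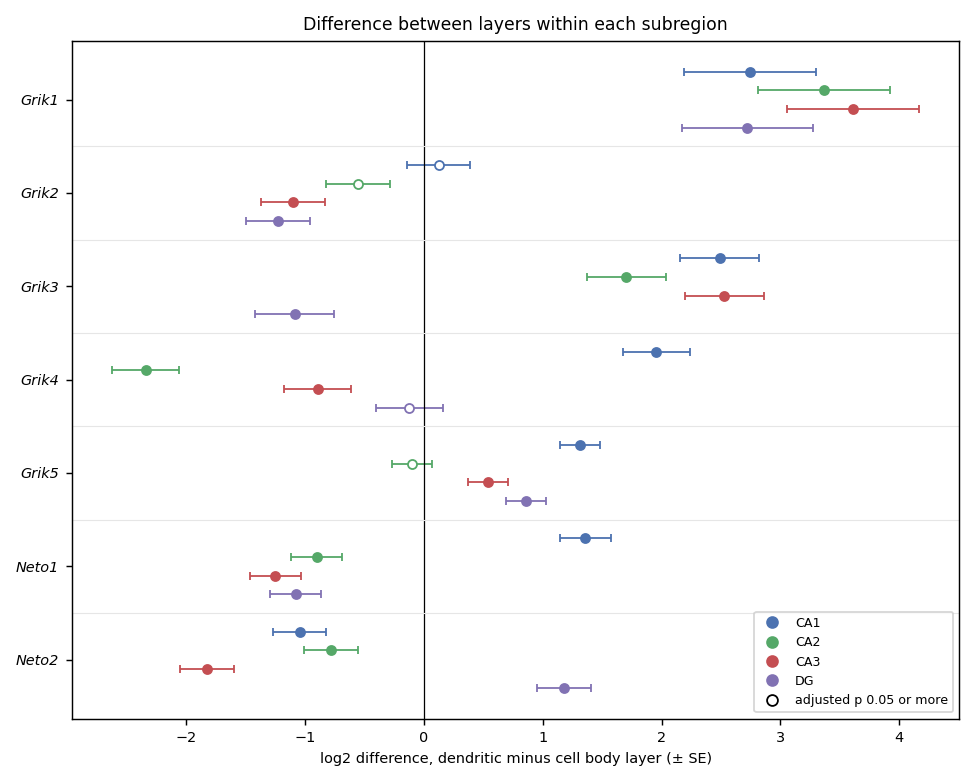
Log2 difference of the dendritic minus the cell body layer (horizontal axis, ± SE of the limma fit) for each gene within CA1, CA2, CA3 and DG (colours, 3 mice per layer). Filled points had an adjusted p below 0.05. Grik1 lies to the right of 0 in every subregion, Grik4 and Neto1 lie to the right in CA1 only among their called values, and Grik3 and Neto2 point in opposite directions in DG.

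The second comparison asked which subregion was high or low for each gene among cell body layers. The 4 comparisons use the same 12 libraries and are not independent of each other. Members called against the mean of the other 3 subregions numbered 4 in CA1 (1 higher, 3 lower), 2 in CA2 (both higher), 5 in CA3 (4 higher, 1 lower) and 6 in DG (2 higher, 4 lower). Of all genes, 5.98% were called in CA1 (2.8% higher, 3.18% lower), 8.97% in CA2 (7.34% higher, 1.63% lower), 7.04% in CA3 (4.91% higher, 2.12% lower) and 17.2% in DG (3.49% higher, 13.7% lower). Grik4 was low in CA1 and high in CA2 and CA3. Its group means were 8.35 ± 0.15 in CA1, 12.56 ± 0.01 in CA2, 12.66 ± 0.02 in CA3, with 9.90 ± 0.09 in DG (SD, n = 3), and no pair of these groups overlapped. Against the other 3 subregions it was -3.36 ± 0.23 in CA1, 2.25 ± 0.23 in CA2, 2.40 ± 0.23 in CA3, with -1.29 ± 0.23 in DG. The limma adjusted p was 1.93e-10, 1.78e-07, 6.15e-08 and 0.000155 in that order of subregions. All 4 calls held under the 13 alternatives, with the DG value at -0.68 under scaling to totals and -0.70 under totals outside the mitochondrial genome. The median of all genes in that DG comparison was -0.08 as deposited and 0.52 and 0.49 under those scalings. The CA1 level was 10.2-fold lower than the mean of the others.

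Neto1 followed a similar order. Its cell body means were 10.57 ± 0.09 in CA1, 13.02 ± 0.15 in CA2, 14.39 ± 0.14 in CA3, with 11.98 ± 0.09 in DG (SD, n = 3), with no overlap. The differences were -2.56 ± 0.18 in CA1 and 2.53 ± 0.18 in CA3 (limma adjusted p = 1.93e-10 and 2.85e-10), and both held under the 13 alternatives. They were 0.71 ± 0.18 in CA2 and -0.68 ± 0.18 in DG (adjusted p = 0.00913 and 0.00663). The CA2 call was lost under 7 of 13 alternatives (0.00425 to 0.178), including without any single mouse (0.72 without 492, 0.77 without 496, 0.64 without 502) and under the 3 other scalings (0.36, 0.30 and 0.33). The DG value was -0.12, -0.07 and -0.08 under the 3 other scalings and -0.62 without mouse 492, and not called in any of these (0.00319 to 0.751 over 13 alternatives). The median of all genes moved with the scaling too. In DG it was -0.08 as deposited and 0.04, 0.52 and 0.49 under those scalings. In CA2 it was 0.10 as deposited and -0.04, -0.30 and -0.26.

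Neto2 was the gene with the widest range, a fold of 24.2 between its highest and lowest group means. Cell body means were 12.13 ± 0.10 in CA1, 11.79 ± 0.15 in CA2, 13.47 ± 0.09 in CA3, with 8.87 ± 0.16 in DG (SD, n = 3), and no groups overlapped. Against the other 3, CA3 was higher by 2.54 ± 0.19 and DG differed by -3.59 ± 0.19, which is 12-fold lower (limma adjusted p = 7.43e-10 and 3.51e-13). Both held under the 13 alternatives. CA1 was higher by 0.75 ± 0.19 (adjusted p = 0.0113), a call lost without any single mouse (0.72 without 492, 0.77 without 496, 0.76 without 502, 0.00029 to 0.176 over 13 alternatives). In CA2 the value was 0.30 ± 0.19 (adjusted p = 0.411).

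Grik3 was the converse in DG. Its mean in DG granule cell layers was 11.50 ± 0.05, against 8.28 ± 0.50 in CA1, 8.71 ± 0.14 in CA2 and 8.08 ± 0.60 in CA3 (SD, n = 3). The CA1 group overlapped those of CA2 and CA3, and the CA2 libraries lay above the CA3 libraries. The DG difference was 3.15 ± 0.27, or 8.85-fold (limma adjusted p = 3.52e-09), and it held under the 13 alternatives. Grik3 was lower in CA1 and CA3, at -1.15 ± 0.27 and -1.42 ± 0.27 (adjusted p = 0.00814 and 0.000961). The CA1 call was lost without mouse 496 (-1.23) or 502 (-0.76, adjusted p 0.00246 to 0.343 over 13 alternatives), and the CA3 call without mouse 492 (-1.03, 2.24e-05 to 0.0697).

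Grik2 and Grik5 varied less, with folds of 2.89 and 3.21 between their highest and lowest group means over both layers. Grik2 averaged 10.87 ± 0.10 in CA1, 10.88 ± 0.07 in CA2, 11.76 ± 0.07 in CA3, with 11.86 ± 0.04 in DG cell bodies (SD, n = 3). The CA3 and DG groups overlapped each other and lay above the CA1 and CA2 groups. Its DG difference was called, at 0.69 ± 0.22 (limma adjusted p = 0.0296), and that call was lost without any single mouse (0.70 without 492, 0.65 without 496, 0.71 without 502, 6.85e-06 to 0.149 over 13 alternatives). Under the 3 other scalings (quantile, totals, totals outside the mitochondrial genome) the DG value was 1.14, 1.29 and 1.28, and called. The median of all genes in DG was -0.08 as deposited and 0.04, 0.52 and 0.49 under those scalings. Grik2 was -0.63 ± 0.22 in CA1 and -0.62 ± 0.22 in CA2 (adjusted p = 0.112 and 0.0854), neither called. In CA2 it was called lower under the same 3 scalings, at -0.90, -1.03 and -0.99. Grik3 was -0.58 in CA2 with the values as deposited (adjusted p = 0.229) and was called lower there under the same 3 scalings, at -0.86, -0.99 and -0.96 (adjusted p = 0.0209, 0.00808 and 0.0115). With Neto1 no longer called, the members called in CA2 cell bodies under each of those scalings were Grik4, higher, and Grik2 and Grik3, lower. The median of all genes there was 0.10 as deposited and -0.04, -0.30 and -0.26 under the scalings. As deposited, 1828 of 24911 genes were called higher there and 407 lower. Under the scalings 1005 of 24911, 818 of 25694 and 926 of 25262 were higher, and 848, 1217 and 1178 lower. In CA1 Grik2 was called lower under quantile normalization (-0.63) and under totals outside the mitochondrial genome (-0.60). The Grik2 values in CA1 and CA2 were also called, with the values as deposited, without CA1 dendrites of mice 492 and 496. Grik5 averaged 13.67 ± 0.15 in CA3, 13.30 ± 0.11 in CA2, 13.07 ± 0.18 in CA1 and 12.69 ± 0.04 in DG. It was 0.66 ± 0.14 in CA3 and -0.65 ± 0.14 in DG against the other 3 (adjusted p = 0.00246 and 0.00114). The CA3 call was lost without mouse 492 (0.61) and under scaling to totals (0.40), and was 0.41 and 0.41 under the other scalings, with an adjusted p of 0.00177 to 0.15 over 13 alternatives. The DG call was lost under the 3 other scalings (-0.08, -0.04 and -0.06) and without mouse 492 (-0.55), with 0.000823 to 0.866. The DG medians of all genes under those scalings are given above with Grik2. In CA3 the median of all genes was 0.04 as deposited, -0.0009 under quantile normalization, -0.21 under totals and -0.20 under totals outside the mitochondrial genome.

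Grik1 was called in no cell body comparison, and its cell body groups overlapped in the order of their means. Markers of other cells also moved among cell body layers. In DG, 10 of 14 interneuron, 8 of 12 astrocyte and 11 of 11 oligodendrocyte lineage markers were lower than in the other 3 subregions, and in CA3 11 of 11 oligodendrocyte lineage markers were higher. In CA2, 9 of 14 interneuron and 9 of 11 oligodendrocyte lineage markers were higher. In CA1, where Grik4 and Neto1 were lowest, 9 of 11 oligodendrocyte lineage and 3 of 12 astrocyte markers were lower and 3 of 14 interneuron markers higher. The interneuron markers summed to 14986 to 15735 in DG, 27747 to 37355 in CA3, 45067 to 53671 in CA2 and 36305 to 40489 in CA1 cell body libraries. Cck was a large part of the sums in the CA fields. Its mean log2 value was 11.52 in DG, against 14.28 in CA3, 14.82 in CA2 and 14.54 in CA1. The part of these other cells in the subregion differences was not tested.

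**Figure D3:**
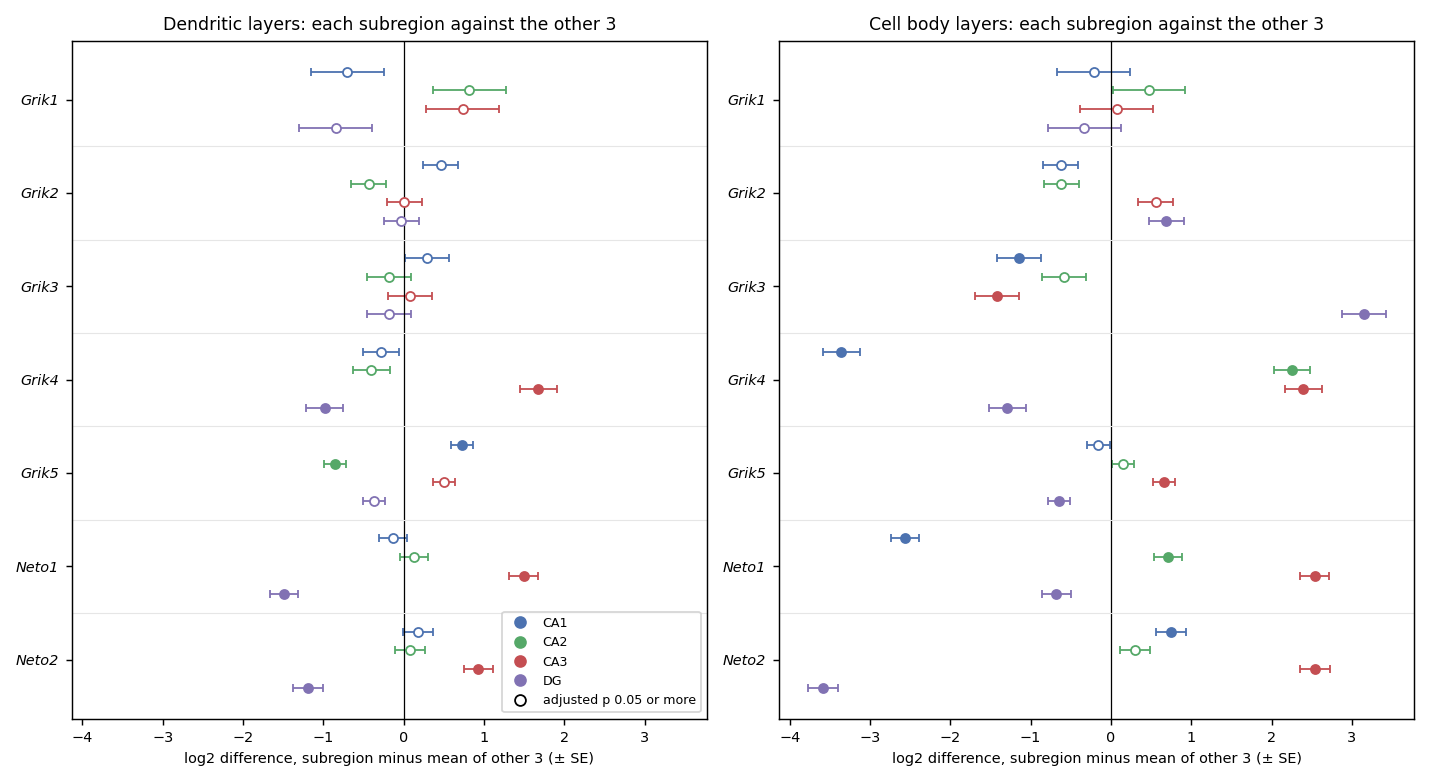
Log2 difference of each subregion (colours) from the mean of the other 3 (horizontal axes, ± SE of the limma fit), in dendritic layers (left) and cell body layers (right), 3 mice per group. Filled points had an adjusted p below 0.05. Grik4 and Neto1 share their order in cell bodies, Grik3 and Neto2 are opposite in DG cell bodies, and 8 of 28 differences are filled in dendritic layers, against 17 of 28 in cell body layers.

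The same comparison among dendritic layers called 1 member in CA1 (higher), 1 in CA2 (lower), 3 in CA3 (all higher) and 3 in DG (all lower). Of all genes, 13.2% were called in CA1 (10.8% higher, 2.46% lower), 2.57% in CA2 (0.446% higher, 2.12% lower), 2.16% in CA3 (1.28% higher, 0.871% lower) and 6.96% in DG (1.36% higher, 5.6% lower). CA3 dendrites were higher than the other 3 in Grik4 by 1.67 ± 0.23, in Neto1 by 1.49 ± 0.18 and in Neto2 by 0.93 ± 0.19 (limma adjusted p = 0.000104, 1.16e-05 and 0.00618). The 3 CA3 dendritic libraries lay above all other dendritic libraries in Grik4 and Neto1, and overlapped those of CA1 in Neto2. The Grik4 and Neto1 calls held under the 13 alternatives. The Neto2 call was lost without mouse 492 (0.88), without mouse 496 (0.91) and without the 4 libraries with a repeat (0.74), with an adjusted p of 0.000106 to 0.135 over 13 alternatives. Grik5 in CA3 was 0.50 ± 0.14 (adjusted p = 0.0568), and it was called under the 3 other scalings (0.41, 0.56 and 0.48) and with a minimum of 100. In CA3 dendrites 5 of 14 interneuron markers were also higher, at sums of 74157 to 100181 in CA3, against 27586 to 81771 in the other dendritic libraries, and their part was not tested.

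DG dendrites were lower than the other 3 in Grik4, Neto1 and Neto2, with differences of -0.99 ± 0.23, -1.49 ± 0.18 and -1.19 ± 0.19 (limma adjusted p = 0.00729, 3.31e-06 and 0.000125). For Neto1 and Neto2 the 3 DG libraries lay below all other dendritic libraries. Mice 492 and 502 have a repeat library for DG and for CA2 dendrites, and without those 4 libraries none of the 3 was called, at -1.18, -1.09 and -0.91. The Grik4 call was also lost without mouse 496 (-0.79), under scaling to totals (-0.57) and under totals outside the mitochondrial genome (-0.68). The median of all genes in DG dendrites was -0.05 as deposited and 0.32 and 0.23 under those scalings. Over 13 alternatives the adjusted p was 0.00509 to 0.165 for Grik4, 2.39e-07 to 0.0755 for Neto1 and 3.63e-05 to 0.205 for Neto2. Neto2 was -0.78 under scaling to totals, and called. In DG dendrites 9 of 14 interneuron markers were lower as well, at sums of 27586 to 36158, and their part was not tested.

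Grik5 was the single member called in CA1 and in CA2 dendrites. It was higher in CA1 by 0.72 ± 0.14 and lower in CA2, at -0.85 ± 0.14 (limma adjusted p = 0.000936 and 0.000581). In CA1 dendrites 8 of 10 microglia markers were also higher and 5 of 11 oligodendrocyte lineage markers lower, and their part was not tested. The CA1 value was 0.11, 0.14 and 0.17 under the 3 other scalings and 0.78 without the CA1 libraries of mice 492 and 496, and was called in none of these (0.000713 to 0.577 over 13 alternatives). The CA2 value was -0.55 under quantile normalization, and its call was lost without mouse 492 (-0.80) and without the 4 libraries with a repeat (-0.75), with 0.000502 to 0.222. Under the same 3 scalings, Grik4 and Neto1 were called lower in CA1 dendrites. The median of all genes in CA1 dendrites was 0.15 as deposited and -0.06, -0.38 and -0.36 under those scalings. As deposited, 2685 of 24911 genes were called higher there and 612 lower. Under the scalings 695 of 24911, 440 of 25694 and 562 of 25262 were higher, and 883, 1620 and 1690 lower. Grik4 was -0.28 ± 0.23 as deposited (adjusted p = 0.451) and -0.75, -0.87 and -0.83 under the scalings. Neto1 was -0.13 ± 0.18 as deposited (adjusted p = 0.667) and -0.64, -0.72 and -0.68 under the scalings.

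Levels of different subunits can be compared only per length. In the transcript table, for which no normalization is named, linear values were divided by transcript length and summed per gene, and the share of each subunit in the sum of the 5 was taken in each library. The sums took in transcripts not annotated as protein-coding. Grik5-207, annotated for nonsense-mediated decay, was a median 12.4% of Grik5 in dendritic libraries (up to 32.5%) and 9.71% in cell body libraries. Grik1-207, a retained intron, and Neto2-202, a processed transcript (median 3.23% of Neto2 in cell body libraries), were also included. Grik5 held the largest share in all 8 groups, between 50.5% ± 1.34 in DG cell bodies and 82.4% ± 5.98 in CA1 dendrites (SD, n = 3). In each subregion its mean share was higher in the dendritic layer. In CA2 it was 67.1% ± 5.33 in dendritic and 58.7% ± 0.859 in cell body layers, and in CA3 73.1% ± 4.62 in dendritic and 59.3% ± 1.03 in cell body layers. In DG it was 77.6% ± 3 in dendritic and 50.5% ± 1.34 in cell body layers, and in CA1 cell body layers it was 77.4% ± 0.474. These shares were not tested.

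The subunit in second place by share per kilobase differed between groups. In CA2 cell bodies it was Grik4 with 28.4% ± 1.27, and in CA3 cell bodies Grik4 with 23.6% ± 1 (SD, n = 3). Grik4 was also second in CA3 dendrites, with 12.4% ± 1.33, against 7.56% ± 2.41 for Grik2. In CA1 cell bodies Grik4 held 2.48% ± 0.0995, behind Grik2 with 18.4% ± 0.744. DG cell bodies had the highest Grik2 share, 32.3% ± 0.857, and the highest Grik3 share, 10.2% ± 0.402. Grik1 held between 0.348% ± 0.0989 in CA3 and 0.587% ± 0.556 in CA2 cell bodies. In dendritic layers it held 2.07% ± 1.2 in CA1, 7.87% ± 2.72 in CA2, 3.99% ± 0.446 in CA3, with 2.65% ± 0.667 in DG.

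Between the Neto genes, the level per kilobase of Neto2 was 1030 ± 77.9 and that of Neto1 196 ± 25.7 in CA1 cell bodies (SD, n = 3, linear units of the transcript table per kilobase). In DG cell bodies the order was turned, with 116 ± 15.4 for Neto2 and 563 ± 52.4 for Neto1. In CA3 cell bodies both were near each other, at 2562 ± 100 for Neto2 and 2706 ± 131 for Neto1.

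**Figure D4:**
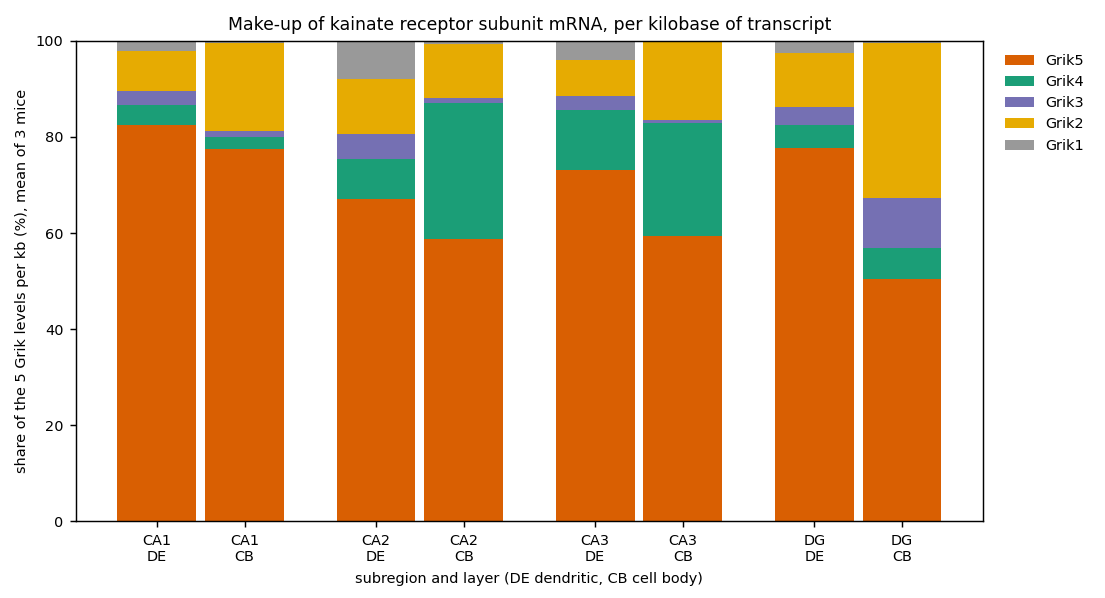
Share of each of the 5 subunits in their summed level per kilobase (vertical axis, percent, mean of 3 mice) in the dendritic layer (DE) and cell body layer (CB) of each subregion. Grik5 takes the largest share in all 8 bars, Grik4 the next in CA2 cell bodies and in both layers of CA3, and Grik2 and Grik3 their highest shares in DG cell bodies.

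The transcript table held 17 transcripts of the members, 5 of Grik1, 2 each of Grik2, Grik4 and Grik5, 4 of Neto2 and 1 each of Grik3 and Neto1. Limma's diffSplice asked whether transcripts of a gene changed unequally. Between layers it called Grik1 (adjusted p = 0.0034) and none of the other 4 members with more than 1 transcript, with 20.7% of 10025 genes called. Grik1-201 took a median 47.3% of the gene in dendritic libraries (range 1.91% to 96.9%) and 24.4% in cell body libraries (9.86% to 73.8%). The share of Grik1-201 thus covered nearly the whole scale among dendritic libraries. In cell body libraries the 5 Grik1 transcripts had median log2 values between 2.45 (Grik1-203) and 4.04 (Grik1-201). These lie around the minimum of log2(10), so the cell body shares and the call rest on values near the floor. The call was lost when transcripts needed a value of 100 in place of 10 (adjusted p = 0.595), without mouse 496 (0.0919), without mouse 502 (0.0566) and without the 4 libraries with a repeat (0.0918), and held without the mouse block and without mouse 492.

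Grik2-202 was the main Grik2 transcript, at a median 75.0% of the gene in dendritic and 87.1% in cell body libraries. Grik5-201 was the main Grik5 transcript, at 87.6% in dendritic and 90.3% in cell body libraries. Grik4-202 took 63.4% of Grik4 in dendritic and 63.4% in cell body libraries. No member was called in any of the 4 subregion comparisons of cell bodies, where 0.11%, 0.259%, 0.14% and 0.788% of genes were called in CA1, CA2, CA3 and DG. At an unadjusted p below 0.05, limma's diffSplice had 1 member in CA2, Grik5, and 0 in the other 3 subregions. Grik5 was not called there after adjustment. The share of all genes below that unadjusted threshold is not given, so the count has no background and no conclusion is drawn from it.

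The genes closest in pattern to each member were taken by Pearson r over the 24 libraries, centred by mouse. They came from 13188 genes whose highest group mean was at least 100 normalized units. Predicted, clone, RIKEN and mitochondrially encoded genes were left out of that pool by symbol. The libraries share mouse and layer, so r describes these 24 libraries and has no p. Neto1 was most like Homer3 (r = 0.930) and Spock3 (0.929), and the third was Grik4 (0.915). Grik4 was most like Pcyt1b (0.938), Kcnmb4 (0.923) and Homer3 (0.921). Grik3 was most like Dock10 (0.961), Pde7b (0.959) and Lrrtm3 (0.948), and Neto2 most like Gprin3 (0.976), Fxyd7 (0.958) and Cachd1 (0.945). For Grik5 these genes were Epb41l4b (0.960), Cacnb3 (0.954) and Ppp2r2c (0.953). For Grik1 they were Sox1 (0.962), Trp53bp2 (0.961) and Rapgef4 (0.951), and for Grik2 Sf3b3 (0.882), Pkia (0.879) and Acvr1c (0.875). Among the members themselves r ran from -0.80 for Grik3 and Neto2 to 0.92 for Grik4 and Neto1.

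**Figure D5:**
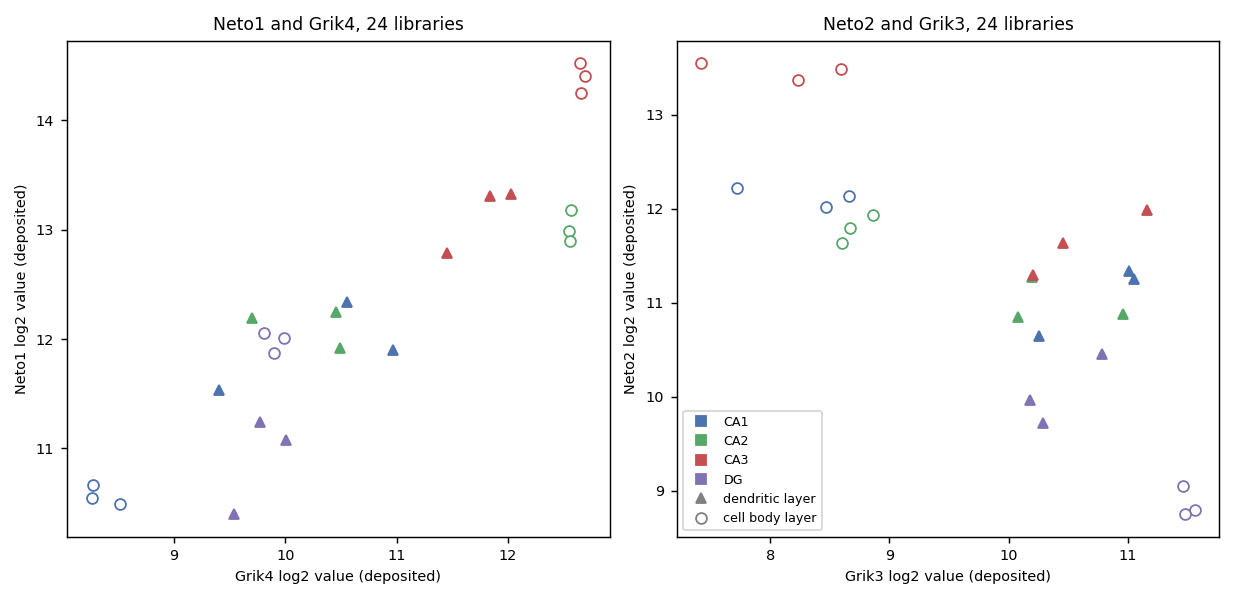
Deposited log2 values of Neto1 against Grik4 (left) and of Neto2 against Grik3 (right) in the 24 libraries, not centred by mouse. Colours are subregions, filled triangles dendritic layers and open circles cell body layers. Neto1 and Grik4 are highest in CA3 cell bodies and lowest in CA1 cell bodies or DG dendrites, and DG cell bodies have the highest Grik3 values beside the lowest Neto2 values.

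Grik3 and Neto2 had the most opposed patterns, and their upstream sequences are shown for that reason. They are the 100 bases before the start in the RefSeq promoter table (GRCm38.p6), Grik3 at chr4:125490596-125490695 on the plus strand and Neto2 at chr8:85700925-85701024 on the minus strand. Neto2 has another entry in that table, which starts within the gene and is not printed. Capitals mark GGGCGG, searched on both strands.
Grik3: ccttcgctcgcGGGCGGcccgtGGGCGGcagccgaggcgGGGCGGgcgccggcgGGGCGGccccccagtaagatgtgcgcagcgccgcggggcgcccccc
Neto2: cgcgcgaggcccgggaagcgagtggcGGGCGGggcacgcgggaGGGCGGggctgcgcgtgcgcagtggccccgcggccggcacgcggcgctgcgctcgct
GGGCGG or CCGCCC was found within 250 bases of the start in 32.7% of 32851 RefSeq promoters, so it is common. The same 250 bases held 42 CpG in Grik3 and 30 in Neto2, against a median of 6 over all promoters. Grik2, Grik4 and Grik5 had 20, 36 and 8 CpG, and GGGCGG was also found for Grik4 and Grik5. These features are thus not particular to the pair. The Neto2 entry that is not printed had 0 CpG and no GGGCGG. Of the 7 genes, 5 had an entry in the table.

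Proteins that bind, anchor or modify kainate receptors were followed in a list of 20 genes. Between layers 7 were higher and 8 lower in dendritic layers, with a median log2 difference of -0.16, against -0.20 for all genes. Of all genes, 19.8% were called higher and 25.4% lower. The 4 with the smallest limma adjusted p were Camk2a, a kinase subunit (2.53 ± 0.06, SE, adjusted p = 1.45e-20), Nsf, a fusion ATPase (-1.85 ± 0.10, 1.59e-13), Dlg4, the scaffold PSD-95 (1.22 ± 0.09, 1.38e-11), and Prkca, protein kinase C alpha (-1.23 ± 0.10, 4.61e-10). The F test among subregions called 13 of the 20, and 11.7% of all genes.

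In DG cell bodies 2 of the 20 were higher and 6 lower. C1ql2 and C1ql3, secreted proteins that mossy fibres release to bind kainate receptor complexes, were higher by 10.08 ± 0.76 and 5.54 ± 0.35 (SE, limma adjusted p = 2.97e-10 and 1.71e-11). C1ql2 also stands in the list of granule cell markers, and it was listed at 0 in at least 1 CA3 cell body library, so its fitted difference depends on the floor of the table. Prkca and Camk2a were lower, at -2.99 ± 0.17 and -0.72 ± 0.10 (adjusted p = 2.13e-12 and 3.49e-06). In CA1 cell bodies 1 of the 20 was higher, C1ql3 at 3.10 ± 0.35 (adjusted p = 8.99e-07), and 4 were lower. The smallest adjusted p of those was that of Adarb1, which encodes the editing enzyme that acts on the Q/R codon printed above, at -1.68 ± 0.20 (1.24e-06). In CA2 cell bodies 4 were higher, among them Adarb1 at 1.14 ± 0.20 (0.000266) and Prkca at 2.11 ± 0.17 (4.57e-09), and 1 was lower. In CA3 cell bodies 6 were higher and 2 lower. Of all genes in cell bodies, 2.8% were called higher and 3.18% lower in CA1, and 7.34% and 1.63% in CA2. In CA3 these shares were 4.91% and 2.12%, and in DG 3.49% and 13.7%.

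Of the 13 other ionotropic glutamate receptor subunits, 5 were higher and 7 lower in dendritic layers, with a median log2 difference of -1.28. The shares of all genes were 19.8% higher and 25.4% lower. The smallest limma adjusted p were those of Grin2c, an NMDA receptor subunit (3.72 ± 0.16, SE, adjusted p = 7.67e-16), Grin2a, another NMDA receptor subunit (-2.02 ± 0.09, 2.36e-15), and the AMPA receptor subunits Gria2 (-2.11 ± 0.11, 5.71e-14) and Gria1 (-1.35 ± 0.08, 1.03e-12). The F test among subregions called 4 of these 13, and 11.7% of all genes. For the 7 kainate receptor and Neto genes the median over the members was -0.35 between layers.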

How the data were processed

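RNA-seq libraries were made from 8 laser-captured layers of each of 3 mice. The gene table deposited by the authors holds log2 values of Salmon read estimates after a median normalization, per the names of its file and sheet. The deposited transcript table holds log2 counts per its file name, with no normalization named. Its values differ from those of the gene table by a shift per library of -0.31 to 0.27. Per the submitters' processing notes, which give no roles, the tools included Salmon 0.9.1, STAR 2.5.1b and limma 3.32.2, and the build was mm10. The annotation release and any use of strand are not given in the sources used here, and reads shared by overlapping or similar genes may have been split by the estimates. Per the labels' protocols, libraries had 16 PCR cycles. Another 4 libraries, repeats of CA2 and DG dendrites of mice 492 and 502, have no column in these tables and were not used, and which preparation the columns of those animals hold is not given. A deposited array table had 12 columns that match no library and was not used.

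The members and lists were chosen with earlier results of these data known. Genes with a value of at least log2(10) in at least 3 libraries were tested with limma 3.58.1 (R 4.3.3, statmod 1.5.0) on the deposited log2 values, with 8 groups and mouse as a block, a trended and robust spread and 14 residual degrees of freedom. Adjusted p-values are two-sided, by the Benjamini-Hochberg method over all 24911 genes, and called below 0.05. Mouse was a block because the 8 libraries of a mouse come from 1 animal. Residuals of libraries of the same mouse had a median correlation of 0.015 (84 pairs), against -0.0067 for different mice (168 pairs). Transcripts were tested with diffSplice, and levels per kilobase used GENCODE M21 transcript lengths. The fits were tested on simulated data. Named genes were the 7 members, the 3 genes most like each by Pearson r, and at most 4 genes of each list with the smallest adjusted p in the comparison described. Alternatives were no block, 3 other scalings, no filter and a minimum of 100, a pseudocount of 10, no trend or robust spread, each mouse left out, the 4 libraries with a repeat left out, and CA1 dendrites of mice 492 and 496 left out. Fold changes between layers are on the log2 scale of the deposited values, whose floor is at 0. SE is that of the fit and SD is over 3 mice.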

Additional observations from a re-analysis of the deposited data

Results flagged for a closer look

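For 5 genes the difference between dendritic and cell body layers was itself different among the 4 subregions, by limma's F test over the interaction terms. The adjusted p was 1.25e-05 for Grik3, 4.83e-07 for Grik4, 0.00133 for Grik5, 2.59e-06 for Neto1 and 3.24e-06 for Neto2. Grik3 was higher in dendritic layers in all 3 mice in CA1, CA2 and CA3 and lower in all 3 mice in DG, and Neto2 was lower in all 3 mice in the CA fields and higher in all 3 in DG. Grik4 and Neto1 were higher in the CA1 dendritic layer in all 3 mice and lower in all 3 mice in CA2 and CA3. Neuron markers also changed sides. Of 5 CA3 markers, 3 were higher in the dendritic layer of CA1 and 4 in that of DG, and 3 were lower in CA2 and 3 in CA3. Of 7 CA2 markers, 3 were higher and 1 lower in CA1, and 6 were lower in CA2. Of 6 granule cell markers, 3 were higher in CA1, 3 in CA2 and 4 in CA3, with 1 lower in CA3 and 3 lower in DG. The part of such neurons in the member differences was not tested. The Grik5 result rested on the scaling, with an adjusted p of 0.354 under quantile normalization, 0.353 under scaling to totals and 0.305 under scaling to totals outside the mitochondrial genome, and on mouse 492 (0.0758 without it). The other 4 were called under each of the 13 alternatives.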

How the results depend on the processing

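Of 56 member differences called in the 13 comparisons of gene values, 27 kept their call under all 13 alternatives, 29 lost it under at least 1, and none turned its direction. Without the mouse block, which pairs libraries of 1 animal, Grik4 between layers kept -0.35 and missed the threshold (adjusted p = 0.0537, 1.19e-05 to 0.273 over its alternatives), the Grik2 F test reached 0.0496, and no other call of a member changed. Without the 4 dendritic libraries of CA2 and DG that have a repeat, 1 library was left in each of those groups. That library is then assumed to vary like the others. Calls over all genes fell as well within CA2, within DG, in CA2 dendrites and in DG dendrites. Members called under that fit are therefore not counted here, and the differences are given above with each gene. In CA1 dendrites 2 members were called in place of 1 under each of the 3 other scalings. Of all genes, 3297 of 24911 were called there as deposited, and 1578 of 24911, 2060 of 25694 and 2252 of 25262 under the scalings. Without the CA1 libraries of mice 492 and 496, CA1 dendrites also kept 1 library, and members are not counted there either. In CA2 cell bodies 1 in place of 2 was called with neither trend nor robust spread, where 1706 of 24911 genes were called in place of 2235. For transcripts 0 in place of 1 was called with a minimum of 100. Leaving out 1 mouse at a time gave 6 to 7 between layers, 6 to 6 within CA1, 4 to 5 within CA2, 4 to 6 within CA3, 5 to 5 within DG and 4 to 5 in the F test. Of the 23270 to 23830 genes then tested, 8494 to 9854 were called between layers. Within CA1, CA2, CA3 and DG, 4611 to 4808, 4644 to 6012, 3618 to 4328 and 3415 to 4303 were called. In dendrites leaving out 1 mouse gave 1 to 1 members in CA1, 0 to 1 in CA2, 2 to 3 in CA3 and 2 to 3 in DG. Of all genes, 1470 to 3177, 118 to 611, 135 to 321 and 663 to 1191 were called there. In cell bodies it gave 2 to 3 members in CA1, 1 to 1 in CA2, 3 to 5 in CA3 and 3 to 5 in DG. Of all genes, 829 to 937, 1032 to 1389, 925 to 1069 and 2698 to 3058 were called there. In each of these comparisons between layers and among subregions, fewer of all genes were called than with all mice. For transcripts leaving out 1 mouse gave 0 to 1 between layers.

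Uncalled layer differences that turned were those of Grik2 in CA1 and Grik5 in CA2, and the cause was not tested. Grik2 in CA1 became -0.17 under quantile normalization, -0.86 under scaling to totals (called there, adjusted p = 0.00316, with the median of all genes at -1.01), -0.29 under totals outside the mitochondrial genome, and -0.57 without CA1 dendrites of mice 492 and 496, and leaving out 1 mouse gave -0.084 to 0.48. Grik5 in CA2 became 0.60 under quantile normalization and 0.41 under totals outside the mitochondrial genome (called there, adjusted p = 0.000712 and 0.0261), 0.10 without the 4 libraries that have a repeat, and -0.26 to 0.03 on leaving out 1 mouse. Grik4 in CA1 dendrites ran from -0.52 to 0.12 on leaving out 1 mouse. The values are estimates of reads with no read counts, so the depth behind them is unknown, and 3 mice per group limit what could be called.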
